A study of Mus musculus with 12 samples.

Results

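The response of Nostrill-siRNA cells to interferon-γ (IFN-γ) was read from 6 of the 12 RNA-seq libraries of the study, namely 3 libraries labelled siR_Nostrill with IFN-γ and 3 labelled siR_Nostrill without it, and from every gene listed for them. The cells were IEC4.1, an established cell line derived from the intestinal epithelium of newborn mice. Cells of both groups carried a pool of 3 siRNAs against Nostrill, a long noncoding RNA (spelled Nostril in some labels), applied for 24 h. The siR_Nostrill + IFN-γ cells then received IFN-γ at 1 ng/ml for 4 h and the siR_Nostrill cells none. The dose and time are those of a figure legend of the study, whereas the labels give 24 h for every library. The other 6 libraries came from cells with a scrambled siRNA, siR_Ctrl, without and with the same IFN-γ treatment. They were used here for a common estimate of the spread between replicates and for values set side by side.

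The siRNA pool, which both groups shared, is shown because it defines the cells in which the response was measured. The sense strands are written 5′ to 3′.
Nostrill-1: ccugggaagaagcauuaau
Nostrill-2: ccaccaggaacacacaaau
Nostrill-3: gccuauaagucguucuaau
The tables listed mRNA genes alone, so Nostrill was not analysed here and the extent of its knockdown was not checked. A line and a pool of siRNAs limit the model, since any off-target effect of a duplex was present in both groups.

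IFN-γ binds a receptor made of Ifngr1 and Ifngr2 chains, whose kinases Jak1 and Jak2 phosphorylate transcription factors of the STAT family. STAT dimers bind GAS elements in promoters and switch on early genes such as Irf1, whose product binds ISRE-like elements of a further set of genes. In intestinal epithelium this programme raises antigen presentation, chemokine release and GTPases that act on vacuoles of intracellular parasites such as Cryptosporidium.

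The labelled cell type went against most of its defining markers. Of 8 markers of intestinal epithelium 5 were listed. Krt8 reached at most 0.41 TPM (a transcript level scaled to the library total and corrected for gene length) in the 6 libraries, Krt18 at most 0.07, Vil1 at most 0.09 and Cdx2 at most 0.04, while Krt19 lay between 1.41 and 3 TPM. Epcam, Cdh1 and Cldn7 were not analysed here. The summed level of the 5 epithelial markers was 2.26 to 3.34 TPM in siR_Nostrill and 1.90 to 2.66 TPM in siR_Nostrill + IFN-γ libraries. The summed level of 5 markers of fibroblasts and muscle was 34.1 to 54.6 and 45.8 to 53.4 TPM, carried by Pdgfra and Dcn. Vim, the intermediate filament of mesenchymal cells, was at 2051 to 2349 TPM without and 2550.2 to 2634 TPM with IFN-γ, and the collagen gene Col1a1 at 242 to 384 and 287 to 369 TPM (genes chosen after their values were seen). Vim did not overlap between the groups, nor did Dcn at 16.8 to 25.2 and 28.0 to 30.6 TPM, while Pdgfra did. Cdh2, also chosen after its values were seen, was higher without overlap, at 22.09 to 30.95 and 31.54 to 39.3 TPM. Des, of the fibroblast and muscle markers, went the other way without overlap, at 1.57 to 1.88 TPM without and 1.14 to 1.41 TPM with IFN-γ. Neither Vim (log2 fold change 0.10, adjusted p = 0.587) nor Dcn (0.29, adjusted p = 0.299) was called, though with the gene-length trend described below removed Vim was (0.21, adjusted p = 0.0143). Their part in the results was not tested. Leukocyte markers summed to at most 0.86 TPM and endothelial markers to at most 0.15 TPM, with a median of 0 for Ptprc. The cells are therefore called IEC4.1 cells below.

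Between 17824306 and 18493044 reads were counted on genes in each of the 6 libraries (median 17998044). Each of the 15002 listed genes had reads in at least 1 siR_Nostrill library, whereas 629 had none in any siR_Nostrill + IFN-γ library, 616 none in siR_Ctrl and 544 none in siR_Ctrl + IFN-γ libraries. Genes silent in siR_Nostrill cells were thus outside the comparison, and interferon targets such as Ido1, Cxcl11, Mx1 and H2-Ab1 were not analysed here. The number of induced genes given below refers to genes already detected without IFN-γ. The TPM of the listed genes summed to 1000000 in each siR_Nostrill table and to between 999931 and 999980 in the other tables. The list was thus that of genes read in siR_Nostrill cells, and the other tables lack genes read only elsewhere. Whether the tables of the groups were otherwise made alike was not tested.

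IFN-γ acted mainly upwards in siR_Nostrill cells. Of 11900 genes tested, 623 were higher with IFN-γ (5.24% of all tested) and 184 lower (1.55%) in edgeR's quasi-likelihood test at an adjusted p of 0.05. At an unadjusted p below 0.05 the number was 2606. The median log2 fold change of all genes was 0.00. The guanylate-binding proteins, most immunity-related GTPases, Irf1, most genes of peptide loading and Cxcl10 were among those that rose, and Aqp5, Rapgef3 and Scx among those that fell. As a description of size, with the direction set by the choice of genes, the 607 genes called higher in both analyses described next held 1.67% ± 0.141 of all TPM without and 4.28% ± 0.156 with IFN-γ (mean ± SD over 3 libraries). The 172 lowered genes held 0.557% ± 0.0590 and 0.441% ± 0.0134.

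A trend with gene length ran through the libraries and through this comparison. Long genes were on average higher with IFN-γ and short genes lower, with a Spearman correlation of 0.49 between log2 fold change and effective gene length across 11546 genes, which are not independent replicates. In 5 classes of equal size, from the shortest to the longest, the median log2 fold change was -0.24, -0.09, -0.01, 0.08 and 0.22. The shortest class of 2310 genes held 53 called higher and 32 called lower, and the longest class of 2309 genes 111 and 10. Replicates of a group differed in the same manner. The deviation of a library from the mean of all libraries had a Spearman correlation with length of -0.63, -0.63 and 0.21 in siR_Nostrill replicates 1, 2 and 3, and of 0.45, 0.31 and -0.23 in siR_Nostrill + IFN-γ replicates 1, 2 and 3. Replicate 3 of each group thus stood apart from replicates 1 and 2. What made the trend was not tested.

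When the trend was removed from each library by a lowess curve over length, the correlation was -0.01 and the class medians lay between -0.01 and 0.00, as the removal itself sets them. The test then called 1336 genes higher (11.2%) and 919 lower (7.72%), and 59.2% of calls were higher, against 77.2% before. Short genes gained most. The shortest class held 264 genes called higher and 221 called lower, and the longest 250 and 148. A total of 607 genes were called higher (5.10%) and 172 lower (1.45%) in both analyses, and 0 genes were called in opposite directions. The count of lowered genes rested on single libraries more than that of induced genes. Their number of 172 became 54 to 83 without siR_Nostrill replicate 2 or 3 or any siR_Nostrill + IFN-γ replicate and 114 without siR_Ctrl replicate 3, against 307 without siR_Ctrl replicate 1 and 261 without siR_Ctrl + IFN-γ replicate 2. The 184 became 55 to 86, 122, 326 and 279 in the same fits, and the 919 became 396, 524 and 479 without siR_Nostrill replicate 2 and siR_Nostrill + IFN-γ replicates 1 and 2. Of the calls made only without the removal, 16 were higher, with a median length of 5986 nt, and 12 were lower, with a median length of 1264 nt, against 2687 nt for all genes. Below, a gene was said to rise or fall where it was called before the removal. The value with the trend removed is given where it changes the account. Counts for gene lists are to be read against all genes, with 5.24% higher and 1.55% lower before removal and 11.2% and 7.72% after.

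**Figure D1:**
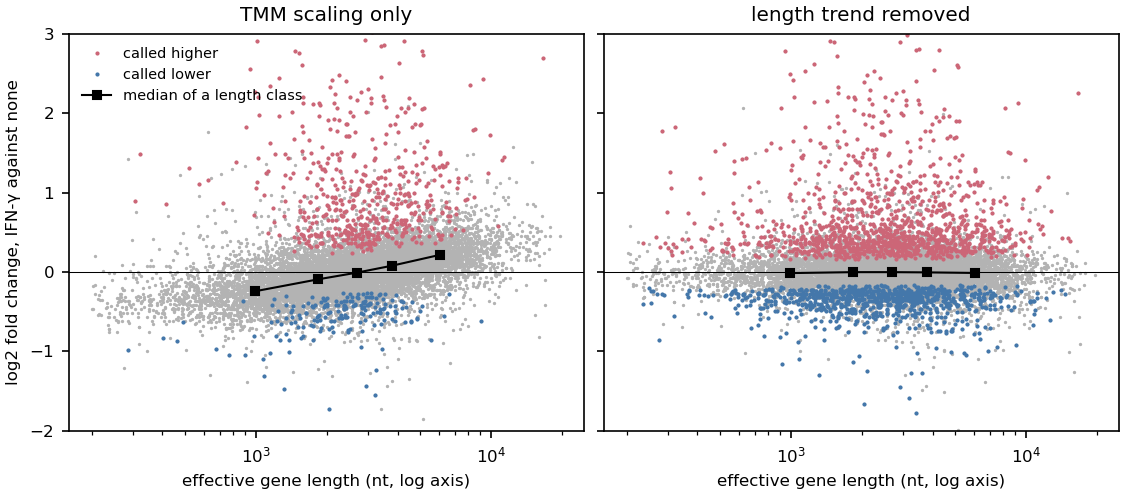
Log2 fold change of each tested gene between siR_Nostrill + IFN-γ and siR_Nostrill cells (vertical axis) against effective gene length in nt (horizontal log axis), with TMM scaling only (left) and with the length trend removed (right). Called genes are coloured, squares are medians of 5 length classes, and on the left 114 genes beyond the axes are not drawn. The class medians run from -0.24 to 0.22 on the left and lie near 0 on the right.

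Induced genes changed over a wide range and lowered genes over a narrow one. Among the 607 genes called higher in both analyses, 48 rose at least 16-fold, 86 rose 4 to 16-fold, 158 rose 2 to 4-fold and 315 less than 2-fold, with a median of 1.96-fold. Among the 172 called lower in both, 11 fell at least 2-fold, 48 fell 1.5 to 2-fold and 113 less than 1.5-fold, with a median of 1.42-fold. Levels of siR_Nostrill cells were low for many induced genes, of which 113 had a mean below 1 TPM and 62 a mean below 10 reads.

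Some members of the JAK-STAT relay rose. Of 11 tested members of the list of receptor, JAK and STAT genes, 4 rose and 0 fell, with a median log2 fold change of 0.28 (0.21 with the trend removed) against 0.00 for all genes. Stat2, a subunit of the transcription complex of type I interferon, was at 8.84, 9.81 and 11.96 TPM without and 86.5, 89.9 and 81.1 TPM with IFN-γ replicates 1 to 3. The groups were widely separated, and Stat2 rose by 2.91 on the log2 scale (standard error 0.10, adjusted p = 6.19e-09) and Stat3 by 2.01 (standard error 0.14, adjusted p = 1.77e-06). Jak2 rose by 0.64 (adjusted p = 0.0104) but was no longer called in 2 of 12 fits that left out a library. The receptor chain Ifngr1 was at 59.1, 57.7 and 66.2 TPM without and 53.4, 57.9 and 60.2 TPM with IFN-γ, and these values overlapped (log2 fold change -0.25, adjusted p = 0.22). Ifngr2 had a log2 fold change of 0.20 (adjusted p = 0.231), and of 0.29 (adjusted p = 0.0246) with the trend removed.

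Some brakes on the pathway rose. Of 15 tested feedback genes 5 rose and 0 fell, namely Socs1, Socs2, Socs3, Cish and Usp18, with a list median of 0.33. Socs1 (gene ID 12703, chromosome 16, 10783808 to 10785536), which inhibits JAK kinases, was at 15.5, 16.2 and 17.0 TPM without and 171, 126 and 122 TPM with IFN-γ. Replicate 1 was the highest of the treated libraries and all treated libraries lay far above the untreated ones (log2 change 2.91, standard error 0.16, adjusted p = 1.78e-07). Socs3, an inhibitor of cytokine receptors that use gp130, went from 22.4 ± 3.22 to 114 ± 3.66 TPM (SD, n = 3 each), a rise of 2.2 on the log2 scale (adjusted p = 1.49e-08). Usp18, which removes Isg15 from proteins and restrains the type I receptor, rose by 3.07 (adjusted p = 4.24e-07), and Cish, a further member of the SOCS family, by 2.27 (adjusted p = 1.96e-06).

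Most interferon regulatory factors tested rose. Of 6 tested, 5 rose and 0 fell, with a median of 1.59. Irf1 (gene ID 16362, chromosome 11, 53770014 to 53778374), which carries the response to late genes, was at 71.3, 76.2 and 85.6 TPM without and 827, 830.0 and 782 TPM with IFN-γ. The treated libraries agree closely among themselves, and the rise was 3.23 on the log2 scale (standard error 0.10, adjusted p = 2.02e-09). Irf7, the amplifier of type I interferon, rose by 2.61 (adjusted p = 1.85e-06), Irf9, the DNA-binding part of the type I interferon complex, by 1.77 (adjusted p = 1.00e-07), and Irf2, an antagonist of Irf1, by 1.41 (adjusted p = 0.00151). Batf2, an AP-1 family factor of interferon-treated cells and among the 15 most induced genes, was at 0.25, 0.19 and 0.07 TPM without and 48.0, 48.4 and 45.9 TPM with IFN-γ.

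The GTPases gave the highest fold changes. Each of 9 tested guanylate-binding proteins, which attack pathogen membranes, rose, with a median of 6.40, and of 14 tested immunity-related GTPases, which disrupt vacuoles around intracellular parasites, 13 rose and 0 fell, with a median of 6.55. Gbp2b (gene ID 14468, chromosome 3, 142594816 to 142619179) was at 3.16, 3.16 and 4.80 TPM without and 881, 901 and 811 TPM with IFN-γ (log2 fold change 7.72, standard error 0.29, adjusted p = 7.30e-09). Gbp6 and Gbp10 rose by 7.07 and 7.02 and Gbp7 by 6.51. Gbp2b with Gbp2, and Gbp6 with Gbp10, are close copies between which reads could be split, so their separate values are uncertain. Igtp (gene ID 16145, chromosome 11, 58199556 to 58207592), also called Irgm3, was at 5.79, 3.98 and 5.38 TPM without and 687, 713 and 685 TPM with IFN-γ. Its treated libraries lay close together, far above the untreated ones, and Igtp rose by 6.94 (standard error 0.26, adjusted p = 7.30e-09). Irgm1, a regulator of the other members, rose from 15.2 ± 2.51 to 448 ± 35.4 TPM (SD, n = 3 each). Gm12250 rose by 6.80 on the log2 scale (adjusted p = 2.16e-08).

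Some GTPases and Cxcl9 started from almost no reads, where a fitted fold change depends on the prior count. Tgtp2 had 1 read in the 3 siR_Nostrill libraries and 16810 in the 3 siR_Nostrill + IFN-γ libraries, and its TPM was 0.00, 0.00 and 0.04 against 190.4, 182 and 167. The ratio of reads per counted read had an exact 95% counting interval from 3030 to 667000. Tgtp1, its near-identical neighbour, went from 0.03, 0.06 and 0.08 to 211, 208 and 184 TPM, and reads could be split between the copies. Gm12185 had 3 reads without and 3703 with IFN-γ (ratio 1240, interval 424 to 6010). Cxcl9, a chemokine that draws activated T cells, had 2 reads without and 2139 with IFN-γ (ratio 1070, interval 297 to 8870), at 24.97, 22.1 and 19.4 TPM in treated cells. Mpeg1, which encodes the pore-forming perforin-2, had 1 read without and 473 with IFN-γ (ratio 475, interval 84.8 to 18800). Apol6, an apolipoprotein L gene, went from 0.14, 0.07 and 0.36 to 59.7, 60.4 and 50.7 TPM, and Ifi205, a DNA sensor of the p200 family, had 5 reads without and 547 with IFN-γ. These intervals cover counting error alone. Iigp1 and Gm4841 completed the 15 most induced genes.

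**Figure D2:**
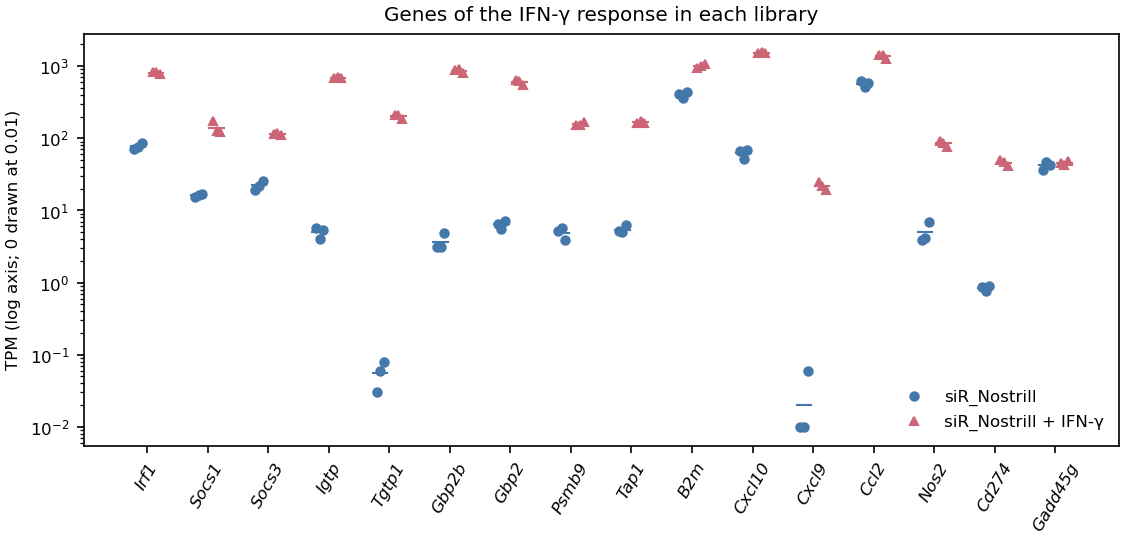
TPM (log axis) of 16 genes in each of the 3 siR_Nostrill libraries (circles) and the 3 siR_Nostrill + IFN-γ libraries (triangles), with a bar at the mean of each group and values of 0 drawn at 0.01. The groups are separated for each gene drawn but Gadd45g, from below 0.1 to about 201 TPM for Tgtp1 and from 61.7 to 1520 TPM for Cxcl10.

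Promoters of induced genes were searched for the GAS letters TTCNNNGAA and for ISRE-like letters, GAAA and GAAA with any 2 bases between them, on both strands, in windows from 250 bases before to 50 after the annotated start (RefSeq, GRCm38.p6). The start used for Gbp2b and for Socs3 lay inside the range of the gene rather than at its end. The 2 motifs can overlap. The ISRE-like letters read TTTC, any 2 bases and TTTC on the other strand, and the GAS letters read the same on both strands. Of 27025 promoters of all genes in the table, 8.47% held the GAS letters, 3.49% the ISRE letters and 0.514% both. Of 9521 promoters of genes tested, the shares were 6.94%, 3.15% and 0.431%. Of 476 promoters of genes called higher in both analyses, 14.1% held GAS, 17.0% ISRE and 4.62% both letters, and of 138 promoters of genes called lower 4.35%, 2.90% and 0. These shares are descriptions, and a match is not a binding site. The windows below are shown because they belong to the early regulators and the GTPases described above, are written 5′ to 3′ on the strand of the gene, and have the matches in capitals.
Irf1 promoter, chr11:53769764-53770063, plus strand: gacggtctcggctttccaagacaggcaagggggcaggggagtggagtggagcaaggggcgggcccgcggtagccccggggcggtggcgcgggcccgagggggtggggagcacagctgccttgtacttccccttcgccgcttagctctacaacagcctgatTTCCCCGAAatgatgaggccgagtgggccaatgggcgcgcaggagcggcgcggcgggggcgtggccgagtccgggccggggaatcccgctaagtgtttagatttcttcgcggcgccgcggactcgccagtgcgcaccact
Socs3 promoter, chr11:117969317-117969616, minus strand: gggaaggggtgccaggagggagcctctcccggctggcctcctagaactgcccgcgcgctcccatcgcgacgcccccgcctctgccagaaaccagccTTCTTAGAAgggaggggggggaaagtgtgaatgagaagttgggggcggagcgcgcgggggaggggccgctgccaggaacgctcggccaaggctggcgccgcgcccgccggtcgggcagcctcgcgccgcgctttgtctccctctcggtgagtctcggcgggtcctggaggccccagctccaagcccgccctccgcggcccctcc
Socs1 promoter, chr16:10785487-10785786, minus strand: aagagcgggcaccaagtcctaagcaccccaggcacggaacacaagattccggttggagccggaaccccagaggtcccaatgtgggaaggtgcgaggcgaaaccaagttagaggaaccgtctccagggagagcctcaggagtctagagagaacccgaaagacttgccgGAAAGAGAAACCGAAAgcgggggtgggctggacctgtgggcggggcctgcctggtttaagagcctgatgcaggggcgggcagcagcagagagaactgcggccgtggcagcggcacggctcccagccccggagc
Igtp promoter, chr11:58199306-58199605, plus strand: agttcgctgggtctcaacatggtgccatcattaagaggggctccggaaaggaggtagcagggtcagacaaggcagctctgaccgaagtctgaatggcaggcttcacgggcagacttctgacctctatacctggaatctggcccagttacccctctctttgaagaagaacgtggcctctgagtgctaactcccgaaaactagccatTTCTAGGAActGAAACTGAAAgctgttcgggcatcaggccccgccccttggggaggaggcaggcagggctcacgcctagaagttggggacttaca
Tgtp2 promoter, chr11:49064163-49064462, minus strand: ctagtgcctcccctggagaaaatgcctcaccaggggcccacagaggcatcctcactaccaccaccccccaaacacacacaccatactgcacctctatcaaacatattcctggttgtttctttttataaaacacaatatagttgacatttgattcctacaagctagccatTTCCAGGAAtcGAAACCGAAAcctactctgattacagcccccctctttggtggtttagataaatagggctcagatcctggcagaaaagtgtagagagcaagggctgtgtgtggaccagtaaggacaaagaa
Gbp2b promoter, chr3:142594597-142594896, plus strand: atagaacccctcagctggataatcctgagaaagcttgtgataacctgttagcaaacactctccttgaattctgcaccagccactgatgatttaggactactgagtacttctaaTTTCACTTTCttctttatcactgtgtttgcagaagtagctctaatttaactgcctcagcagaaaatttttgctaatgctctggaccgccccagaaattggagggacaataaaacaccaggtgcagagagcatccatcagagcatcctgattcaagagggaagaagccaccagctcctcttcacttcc
Irf1 and Socs3 held GAS letters, with the first base 90 and 154 bases before the start. Socs1 held ISRE letters in 2 overlapping places and Gbp2b in 1 place. Igtp and Tgtp2 held both letters close to each other, at 45 and 34 bases before the start in Igtp and at 81 and 70 bases in Tgtp2. Among other promoters found for the most induced genes, Tgtp1, Gm12185 and Gm12250 held both letters and Ifi205 the ISRE letters alone, while Cxcl9 and Mpeg1 held neither in this window. None of the promoters found for the 15 most lowered genes, those of Aqp5, Rapgef3, Arl4d, Cenps, Bdkrb2 and Cck, held either.

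Most genes of antigen processing for MHC class I rose. Of 16 tested genes of the immunoproteasome and peptide loading 11 rose and 0 fell, with a median of 1.65, and with the trend removed 13 did. The general chaperone genes of the list, Calr, Canx and Pdia3, were not called in either analysis, at -0.21, 0.09 and -0.11. Psmb9 (gene ID 16912, chromosome 17, 34182030 to 34187330), a catalytic subunit of the immunoproteasome, was at 5.23, 5.71 and 3.87 TPM without and 153, 155 and 169 TPM with IFN-γ (log2 fold change 4.86, standard error 0.26, adjusted p = 2.00e-07). Its neighbour Tap1, which carries peptides into the endoplasmic reticulum, was at 5.12, 4.97 and 6.25 TPM without and 163, 175 and 162 TPM with IFN-γ (log2 fold change 4.78, adjusted p = 1.56e-08). In both genes the groups were far apart and the replicates of each close together. Nlrc5, the transactivator of class I genes, rose by 4.83 (adjusted p = 7.96e-09), and B2m, the light chain of class I molecules, by 1.16 (adjusted p = 0.000113), from 406 ± 38.4 to 1010 ± 69.7 TPM (SD, n = 3 each). Psme2b rose by 3.43 but was called in only 4 of 12 fits that left out a library.

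Class I chains themselves had smaller fold changes, and some were called only with the length trend removed. Of 12 tested chains 5 rose and 0 fell, with a median of 0.75, and 8 rose with the trend removed (median 0.82). The classical chain H2-K1 was at 389.7, 372 and 398 TPM without and 568, 577 and 593 TPM with IFN-γ, with no overlap, yet its log2 fold change of 0.43 did not pass (adjusted p = 0.106) until the trend was removed (0.59, adjusted p = 1.82e-06). H2-D1 behaved alike, at 0.44 (adjusted p = 0.122) and 0.57 (adjusted p = 1.48e-05). Among nonclassical chains, H2-T24 rose by 1.58, H2-T23 by 0.97, H2-Q4 by 0.89 and H2-M3 by 0.81. Chains of the H2 family resemble each other, so their separate counts are uncertain, and the count of 5 fell to 3 without siR_Nostrill replicate 1 or 3 or siR_Nostrill + IFN-γ replicate 2 or 3. For MHC class II, of 6 tested genes only the transactivator Ciita rose, by 1.79 (adjusted p = 0.000868), at 0.20 to 0.26 TPM with IFN-γ and 0.05 to 0.06 TPM without.

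Chemokines included abundant induced transcripts. Of 15 tested, 4 rose and 0 fell, with a median of 0.51, and 11 rose with the trend removed (median 0.77). Chemokine genes are short, with a median effective length of 865 nt. Cxcl10 (gene ID 15945, chromosome 5, 92346638 to 92348889), a ligand of Cxcr3 on T cells, was at 65.8, 51.3 and 67.9 TPM without and 1500, 1548 and 1505 TPM with IFN-γ. The treated values lay within 50 TPM of each other, and the rise was 4.46 on the log2 scale (standard error 0.16, adjusted p = 6.19e-09). Ccl2, which attracts monocytes, went from 614, 519 and 576 to 1450, 1435 and 1263 TPM (log2 fold change 1.11, adjusted p = 0.000691). Cx3cl1, a membrane-bound chemokine, rose by 1.34 (adjusted p = 6.97e-07). Ccl5, a chemokine for T cells, was at 224 ± 28.2 and 334 ± 22 TPM (SD, n = 3 each), and its log2 fold change was 0.40 (adjusted p = 0.309) before and 0.75 (adjusted p = 0.000789) after removal.

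Most antiviral genes shared with type I interferon rose. Of 27 tested 20 rose and 0 fell, with a median of 1.62 (24 rose with the trend removed). Ifi44 rose by 3.79, Oas2, an activator of RNase L, by 3.6, Ifit3b by 3.43 and Oasl2 by 3.09 on the log2 scale. The value for Ifi44 is uncertain, since it had 10 reads without and 144 with IFN-γ. Oasl2 was at 12.9, 10.8 and 15.5 TPM without and 125, 132 and 116 TPM with IFN-γ. Of 15 tested nucleic acid sensors, other Toll-like receptors and adaptors 12 rose and 0 fell, with a median of 1.30. The 12 included the lipoprotein receptor gene Tlr2 at 0.97 and the adaptor gene Myd88 at 1.26, which are not sensors of nucleic acid. The sensors among them included Zbp1, a sensor of Z-form nucleic acid, by 4.59 (adjusted p = 2.56e-08), Ifi203 by 3.50 and Tlr3, a receptor of double-stranded RNA, by 2.63. Of 14 tested PARP genes and Dtx3l 10 rose and 0 fell, with a median of 1.29. Parp14, a modulator of STAT signalling, rose by 4.46, Dtx3l, a ubiquitin ligase, by 3.78, its partner Parp9 by 2.92 and Parp12 by 2.30. With the trend removed 9 rose, and Parp8 was no longer called (0.47 before and 0.23 after, adjusted p = 0.145 after). Parp1, a DNA repair enzyme, was then the only lowered member, at -0.25.

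Genes of cell death and immune recognition followed. Of 25 tested genes of apoptosis, pyroptosis and necroptosis 13 rose and 1 fell, with a median of 0.49. Xaf1, which opposes Xiap, rose by 3.18 and the death receptor Fas by 2.44, from 5.94, 6.40 and 5.26 to 29.8, 40.4 and 35.8 TPM. Gsdme, a pore-forming gasdermin, fell by 0.44 (adjusted p = 0.00913), from 15.8 ± 1.66 to 12.9 ± 0.655 TPM (SD, n = 3 each). Of 9 tested checkpoint ligands and adhesion genes 5 rose and 0 fell (median 0.45), though 3 did without siR_Nostrill replicate 3 or siR_Nostrill + IFN-γ replicate 1 or 2. Once the trend was removed, 6 rose and 1 fell, the costimulatory receptor gene Cd40, which had a log2 fold change of -1.0 in both analyses (adjusted p = 0.0669 before and 0.0421 after, called in 3 of 12 fits that left out a library with the trend removed and named after its values were seen). Cd274, which encodes the T cell inhibitory ligand PD-L1, went from 0.86, 0.77 and 0.91 to 50.5, 46.5 and 41.3 TPM (log2 fold change 5.61, standard error 0.14, adjusted p = 4.34e-10). Tnfrsf14 rose by 2.19, Vcam1, a ligand for leukocyte integrins, by 0.56 and Lgals9 by 0.47. Of 13 tested complement genes 7 rose and 0 fell (median 0.77). C4b rose by 5.46, an uncertain value, since it had 5 reads without and 239 with IFN-γ. The protease C1s1 rose by 2.17, C2 by 1.87 and C1s2 by 1.86.

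Enzymes with antimicrobial products rose in part. Of 13 tested genes of nitric oxide, tryptophan and arginine metabolism 4 rose and 0 fell, with a median of 0.23. With the trend removed 4 rose and 2 fell, where 11.2% of all genes were called higher and 7.72% lower. The lowered genes were the urea cycle gene Asl at -0.31 and the biopterin synthesis gene Spr at -0.22 (named after their values were seen). Nos2 (gene ID 18126, chromosome 11, 78920787 to 78960226), the inducible nitric oxide synthase, was at 3.88, 4.13 and 6.96 TPM without and 93.2, 85.5 and 76.5 TPM with IFN-γ. Replicate 3 was the highest untreated and the lowest treated library, and the rise was 3.97 on the log2 scale (standard error 0.24, adjusted p = 4.91e-07). Ido2, which degrades tryptophan, rose by 4.36, though from 11 reads without to 235 with IFN-γ, and the tryptophanyl-tRNA synthetase Wars by 2.01. Acod1, which makes itaconate, had 2 reads without and 42 with IFN-γ (ratio 21.1, interval 5.48 to 180). Gadd45g, a stress-response gene that the study followed, showed no such rise. It was at 36.6, 47.0 and 42.6 TPM without and 45.2, 42.4 and 47.8 TPM with IFN-γ, and these values overlapped (log2 fold change -0.07, standard error 0.22, adjusted p = 0.866). With the trend removed its value was 0.17 (adjusted p = 0.206). In siR_Ctrl cells the Gadd45g value was 0.54 (adjusted p = 0.257), and 0.38 (adjusted p = 0.0136) with the trend removed. The difference between the 2 responses, tested as an interaction, did not pass in edgeR (adjusted p = 0.43 before and 0.394 after removal).

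Among genes called in both analyses, metallothioneins, which bind zinc and copper, gave the largest gains in TPM beside Cxcl10 (genes chosen after their values were seen). Mt1 was at 1582, 1329 and 1149 TPM without and 2677, 2724 and 3174 TPM with IFN-γ, with a log2 fold change of 0.90 (adjusted p = 0.0495) and of 1.26 with the trend removed (adjusted p = 9.03e-07). Mt2 was at 605, 514 and 483 TPM without and 1626, 1584 and 1848 TPM with IFN-γ, with a log2 fold change of 1.48 (adjusted p = 0.00296). Both genes are short, and Mt1 was called in 4 of 12 fits that left out a library. Fst, which encodes the activin antagonist follistatin, rose from 1.12, 0.90 and 1.58 to 63.0, 55.8 and 48.0 TPM (log2 fold change 5.39, adjusted p = 2.41e-09). Il6 rose by 1.83 on the log2 scale (adjusted p = 0.00184).

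Lists of signalling pathways outside the interferon system held up to 6 genes called higher each, to be read against 5.24% of all genes before and 11.2% after removal of the trend. Of 20 tested NF-κB subunits and feedback genes 3 rose and 0 fell, namely Bcl3 by 1.44, Nfkbiz by 1.2 and Nfkb1 by 0.57. The count was 5 without siR_Ctrl replicate 1 and 6 with the trend removed. Of 37 tested immediate-early genes and MAPK feedback genes 6 rose and 1 fell, and 15 rose and 4 fell with the trend removed. Atf3, a stress-induced repressor, rose by 1.37 and Egr2 by 1.03, while Spry1, an inhibitor of receptor tyrosine kinase signalling, fell by 1.73 (adjusted p = 0.00237), from 0.95, 0.74 and 1.02 to 0.35, 0.15 and 0.36 TPM. The count of 6 became 10 without siR_Ctrl replicate 1 and 3 without siR_Nostrill replicate 1. Without siR_Ctrl replicate 1, 3 of these genes fell, and without siR_Nostrill replicate 2, 2 fell. Among 26 tested genes of the Hippo pathway 3 rose and 0 fell, the tissue factor gene F3 by 1.19, Ccn2 by 0.94 and Ccn1 by 0.33, and with the trend removed 5 rose and 2 fell. Among 27 tested Wnt and Notch genes 3 rose and 0 fell, the receptor Notch1 by 2.43, Fzd7 by 0.87 and Tcf7 by 0.48, and 1 did without siR_Nostrill replicate 2 or siR_Nostrill + IFN-γ replicate 1. Once the trend was removed, 3 Wnt and Notch genes rose and 2 fell, the ligand gene Jag1 and the receptor gene Lrp6 (named after their values were seen). Of 28 tested TGF-β and BMP genes 0 were called, and with the trend removed 2 rose and 3 fell, Id2 and Id3 upwards and Bmp4, Tgfb3 and Tgfbr2 downwards. Over all genes 11.2% were called higher and 7.72% lower in that analysis, and nothing particular to the TGF-β, Wnt and Notch, and Hippo lists is read from their counts.

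Metabolic and housekeeping lists had few calls before the trend was removed, near the 5.24% called higher over all genes, and nothing particular to these lists is read from them. Of 30 tested genes of glycolysis and hypoxia 2 rose and 1 fell, the hexokinase gene Hk2 by 1.37 (adjusted p = 0.000894), Hif1a by 0.87 (adjusted p = 0.0225) and, downwards, the phosphofructokinase gene Pfkm, which fell by 0.40 (adjusted p = 0.00919). After removal of the trend 7 rose and 1 fell. Without any of siR_Nostrill replicates 1 or 2 or any of the siR_Nostrill + IFN-γ replicates, 1 of them rose. Of 45 tested cell cycle genes 2 rose and 0 fell, Cdk6 by 1.45 and Ccnd2 by 0.67, and with the trend removed 4 rose and 5 fell. Of 38 tested autophagy genes 1 rose and 0 fell, against 3 and 3 with the trend removed (Atg12 and Gabarapl1 also higher, Atg3, Atg101 and Pik3c3 lower, named after their values were seen). Lamp2, a lysosomal membrane protein, rose in both analyses, from 144, 117 and 166 to 268, 252 and 228 TPM (log2 fold change 0.65, adjusted p = 0.00546). The autophagy genes Sqstm1 and Becn1 were at 298 ± 27.0 and 61.5 ± 4.76 TPM without and 296 ± 11.2 and 58.5 ± 1.68 TPM with IFN-γ (SD, n = 3 each), and Map1lc3b had a log2 fold change of -0.05 (adjusted p = 0.822). Of 33 tested lysosomal genes 2 rose, Scarb2 by 0.59 and Gla by 0.33, and 1 did in 8 of the 12 fits that left out a library. After the removal 7 lysosomal genes rose and 1 fell. Of 11 tested junction and keratin genes Cldn12 rose by 0.57, but it was not called without siR_Nostrill replicate 1 or 2 or siR_Nostrill + IFN-γ replicate 2. Of 27 tested cholesterol genes and 29 tested stress genes of the endoplasmic reticulum and amino acid supply 0 were called, and with the trend removed 1 and 2 rose and 1 and 4 fell.

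Lists of short genes had lower medians while the length trend was present. The 82 tested ribosomal protein genes, with a median effective length of 478 nt, had a median log2 fold change of -0.40, and 0 of them were called. With the trend removed the median was -0.09, 2 were called higher and 12 lower. Rps23 was at 3454, 4932 and 4020 TPM without and 2522, 2576 and 2409 TPM with IFN-γ, with a log2 fold change of -0.90 (adjusted p = 0.111) before and -0.55 (adjusted p = 0.00236) after removal. Rps27, among the shortest of them, moved from 0.00 (adjusted p = 0.997) to 0.46 (adjusted p = 0.000789). The 90 tested genes of the respiratory chain, of which the median length was 494 nt, had a median of -0.28 before and -0.03 after removal, with 0 called before and 9 higher and 5 lower after, shares no larger than those over all genes (11.2% and 7.72%). Some of the genes in that list are assembly factors.

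Matrix genes, which are long, went the other way. The 40 tested genes of the extracellular matrix and integrins, with a median effective length of 5328 nt, had a median log2 fold change of 0.01, and 1 rose and 2 fell. With the trend removed the median was -0.19, and 2 were called higher and 13 lower. Over all genes 11.2% were called higher and 7.72% lower in that analysis. Timp3, an inhibitor of matrix proteases, rose by 1.0 (adjusted p = 0.00335), Itgb3, the β chain of the vitronectin receptor, fell by 0.85 (adjusted p = 0.0337) and Col16a1, a fibril-associated collagen, by 0.49 (adjusted p = 0.0191). Of these 2 lowered genes 0 were called without siR_Nostrill replicate 2 or 3 or siR_Nostrill + IFN-γ replicate 1 or 2, and 1 without siR_Ctrl replicate 3, siR_Ctrl + IFN-γ replicate 1 or siR_Nostrill + IFN-γ replicate 3. Col3a1, a fibrillar collagen, was at 77.5, 82.6 and 131.0 TPM without and 86.5, 81.3 and 69.9 TPM with IFN-γ. Its values overlapped, with replicate 3 the highest of the untreated libraries, and its log2 fold change was -0.44 (adjusted p = 0.125) before and -0.61 (adjusted p = 2.13e-05) after removal. Col5a2 and Lamb1 had values of -0.40 and -0.36 after removal, both called, and of -0.18 each before. Whether the removal recovers a change in long genes or adds one was not tested.

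**Figure D3:**
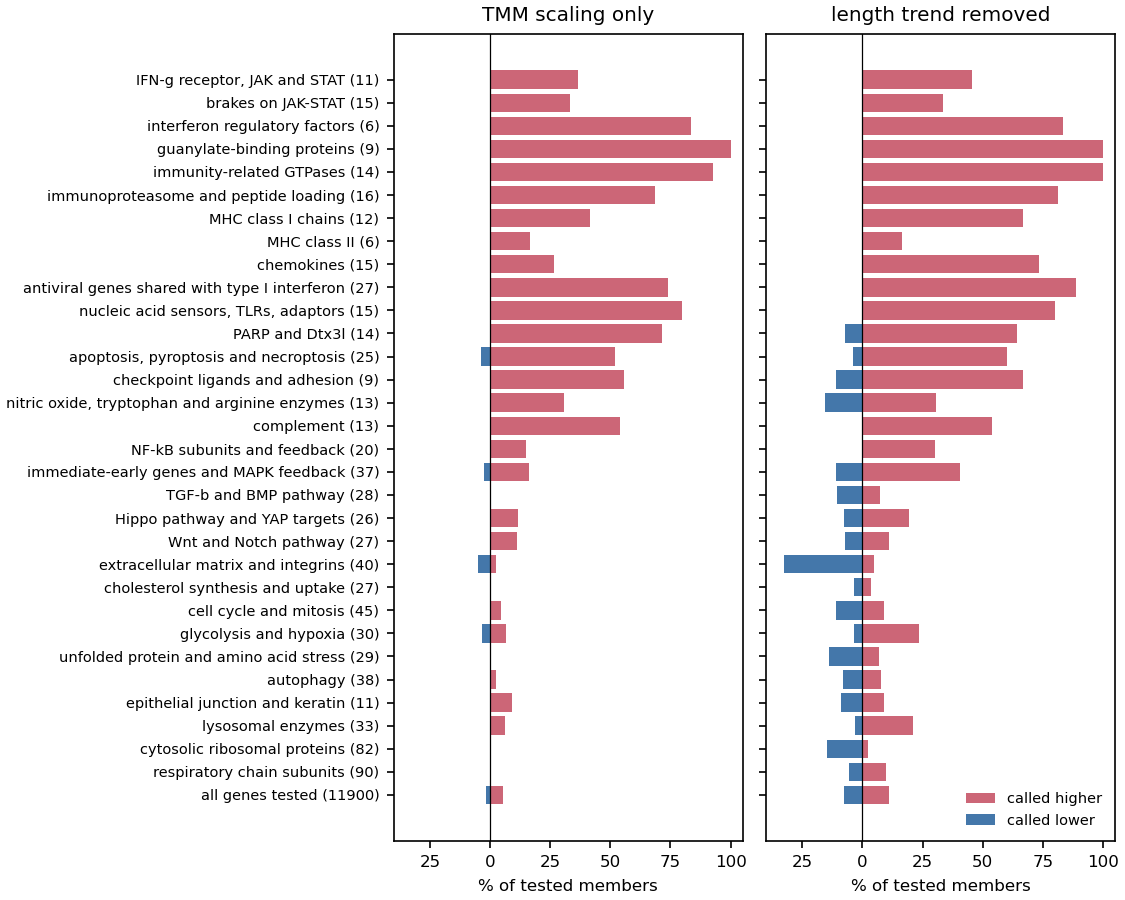
Percentage of tested members of each of 31 gene lists, and of all 11900 genes, called higher (to the right) or lower (to the left) with IFN-γ in siR_Nostrill cells, with TMM scaling only and with the length trend removed. Numbers of tested members stand in parentheses. Interferon lists are called higher in both panels, while 13 of 40 matrix genes and 12 of 82 ribosomal protein genes are called lower in the right panel, against 2 and 0 in the left.

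Among genes called in both analyses whose average log2 CPM exceeded 1 and whose FPKM did not overlap, the 15 most lowered fell by 0.85 to 1.47 on the log2 scale. Aqp5 (gene ID 11830, chromosome 15, 99591028 to 99594829), a water channel of secretory epithelia, was at 26.2, 22.3 and 20.97 TPM without and 9.13, 8.98 and 10.2 TPM with IFN-γ (log2 fold change -1.47, standard error 0.25, adjusted p = 0.00298). Rapgef3 (gene ID 223864, chromosome 15, 97744770 to 97768419), a cAMP-activated exchange factor also called Epac1, was at 10.1, 12.9 and 12.7 TPM without and 4.94, 4.95 and 5.31 TPM with IFN-γ (log2 fold change -1.23, standard error 0.12, adjusted p = 5.21e-05). In both genes the treated libraries lay close together and well below the untreated ones. Scx, a transcription factor of tendon cells, went from 73.5, 96.5 and 89.4 to 50.9, 42.2 and 47.4 TPM (log2 fold change -1.05, adjusted p = 0.00829). The bradykinin receptor gene Bdkrb2, the small GTPase gene Arl4d and the kelch gene Klhl30 fell by 0.97, 1.02 and 0.94. The 6 genes named so far in this group were called in at least 11 of 12 fits that left out a library, as was 9930012K11Rik. The others depended more on single libraries. The centromere gene Cenps (6 of 12 fits), the Nodal antagonist gene Lefty1 (5), the peptide hormone gene Cck (5), Itgb3 (5), Gm27021 (4) and Ankrd66 (8) were called in fewer of these fits, and the aldehyde dehydrogenase gene Aldh3a1 in 9.

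**Figure D4:**
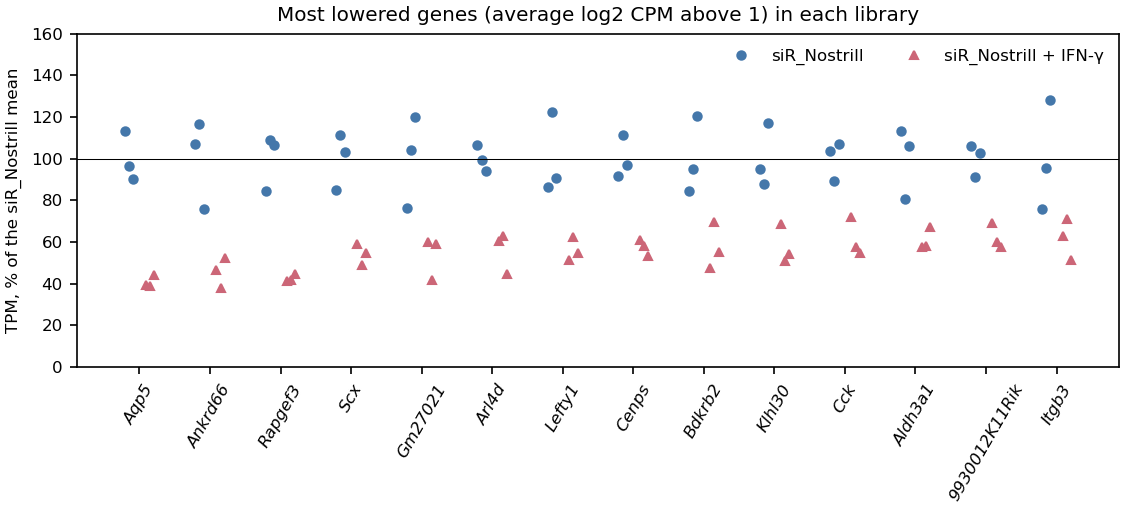
TPM of 14 of the 15 most lowered genes, by the limits on CPM and overlap given above, in each siR_Nostrill (circles) and siR_Nostrill + IFN-γ (triangles) library, as a percentage of the siR_Nostrill mean of the gene. The treated libraries lie below the untreated ones for each gene, at about 40% of the mean for Aqp5 and Rapgef3.

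Further lowered genes were chosen after their values were seen. Areg, a ligand of the EGF receptor, was at 33.8, 39.1 and 37.6 TPM without and 21.8, 25.6 and 23.8 TPM with IFN-γ, without overlap (log2 fold change -0.80, adjusted p = 0.00624). The Wnt ligand genes Wnt7b and Wnt6, which the Wnt and Notch list does not hold, fell by 1.55 and 0.61 and the neurotrophin gene Bdnf by 0.59. Wnt7b was not among the 15 most lowered genes because it did not meet all the limits on calls in both analyses, CPM and FPKM overlap. Fgf7, a growth factor for epithelium, fell by 0.57 (adjusted p = 0.00962), though its TPM of 20.5, 17.3 and 24.2 overlapped with that of treated cells at 17.5, 15.04 and 13.9. The plasminogen activator genes Plau and Plat fell by 0.69 (adjusted p = 0.00626) and 0.58 (adjusted p = 0.0278), and Hexim1, an inhibitor of the elongation factor P-TEFb, by 0.67 (adjusted p = 0.00110). Phlda3, a p53 target that inhibits Akt, was at 124, 131 and 133 TPM without and 93.3, 96.3 and 93.6 TPM with IFN-γ (log2 fold change -0.62, adjusted p = 0.0309). Cdkn2b, a CDK inhibitor, was at 84.8 ± 3.14 and 61.6 ± 0.326 TPM (SD, n = 3 each), and the log2 fold change was -0.63 (adjusted p = 0.0305). Both were called in 7 of 12 fits that left out a library.

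Whether the response differed from that of siR_Ctrl cells was tested as an interaction. It passed for 0 of 11900 genes (0%) in edgeR, with 1277 at an unadjusted p below 0.05, and for 0 in DESeq2's Wald test, with 1485. With the length trend removed it passed for 0 in edgeR, with 2262 at an unadjusted p below 0.05, for 250 with the replicate number as a block and for 328 in DESeq2, and 199 genes were shared between these last counts. In siR_Ctrl cells 560 of 11900 genes were called higher and 89 lower with IFN-γ before the removal. Of the 607 genes called higher in siR_Nostrill cells, 419 were called higher in siR_Ctrl cells as well and 593 had the same sign. Their median log2 fold change was 0.97 in siR_Nostrill and 0.88 in siR_Ctrl cells. Of the 172 called lower, 30 were called lower in siR_Ctrl cells and 140 had the same sign, with medians of -0.50 and -0.16. The genes were chosen on the siR_Nostrill values, so the larger medians there are a description. Of the 199 shared genes, 47 were called in siR_Nostrill cells in both analyses. Among them were 10 named genes, given here with log2 fold changes before the removal in siR_Nostrill and then siR_Ctrl cells. These were 2.61 and 3.57 for Irf7, 1.77 and 2.31 for Irf9, 2.91 and 3.18 for Stat2 and 4.46 and 4.62 for Parp14. H2-Q4 had 0.89 and 1.48, H2-T23 0.97 and 1.83 and Lamp2 0.65 and 0.14. Rapgef3 had -1.23 and -0.61, Cenps -0.97 and 0.13 and Col16a1 -0.49 and 0. After the removal Stat2 had 2.80 and 3.27 and Parp14 4.20 and 4.76. In edgeR without the removal the adjusted p of the interaction was 0.705 for Parp14 and 0.43 for each of the others.

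**Figure D5:**
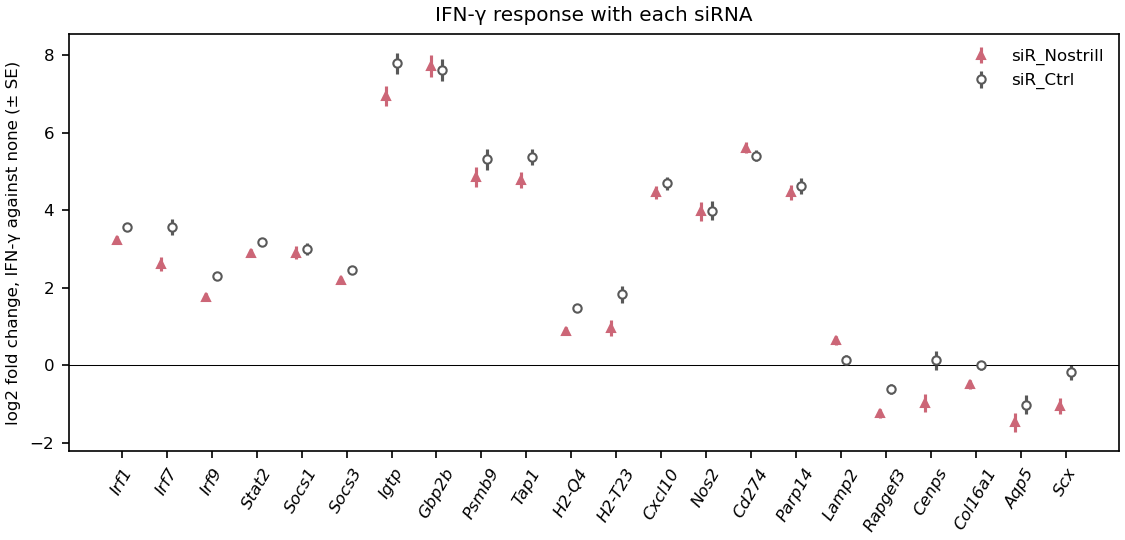
Log2 fold change with IFN-γ (± approximate standard error worked out from the edgeR test, TMM scaling only) in siR_Nostrill (triangles) and siR_Ctrl (open circles) cells for 22 named genes. Irf7 stands at 2.61 and 3.57 and Scx at -1.05 and -0.18, and no gene of the 11900 passed the test of the difference in this fit.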

How the data were processed

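RNA-seq of IEC4.1 cells was analysed in 12 libraries, of which the 3 siR_Nostrill + IFN-γ and 3 siR_Nostrill libraries form the comparison. The methods and the submitters' processing notes name SOAPnuke for read filtering, HISAT2 and Bowtie2 for alignment, and the build GRCm38.p6 (mm10). The counting tool and its use of strand are not given in the sources used here, so overlapping and antisense genes cannot be told apart. Each deposited table gives, by the authors, the estimated count (expected count) of reads for each gene, not normalized. These counts were not all whole and were rounded here. The authors also deposited FPKM and TPM values, both scaled for length, and the methods name RPKM. The 15002 listed genes were all mRNA, and 14958 IDs were found in RefSeq of GRCm38.p6. The label of biological triplicates comes from the methods, and p-values measure the spread between these libraries. Replicates of the 6 libraries differed by 6.72 to 31 times the sampling variance, so no library was a copy of another.

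Counts were tested with edgeR 4.0.16 in R 4.3.3 (quasi-likelihood test, TMM, default filter, all 12 libraries, Benjamini-Hochberg adjustment over 11900 genes, threshold 0.05). Each standard error given was worked out as the absolute log2 fold change over the square root of the F statistic of this test. It is approximate, above all for large changes. Effective length was the ratio of CPM to FPKM, and its trend in each library was removed as an offset (lowess, span 0.3) and 354 tested genes without a length got no offset. The code of the fits was run on simulated counts with known changes, with and without a straight-line length trend. Such counts are simpler than these libraries, so the run does not show how well the fits do here. Alternatives were DESeq2 1.42.0, other size factors, filters and spans, only 6 libraries, limma 3.58.1 on log2 FPKM with a pseudocount of 1 or 0.1, the replicate number as a block, and each library left out.

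Named genes were the 15 highest and 15 lowest log2 fold changes among genes called in both analyses with an average log2 CPM above 1 and no FPKM overlap, up to 4 called members with the largest change per list, and Irf1, Igtp, Nos2, Gadd45g, Socs1 and Socs3. Some genes that the rule names are not reported here. Genes, lists and the removal of the trend were chosen with earlier results of these data known. A fit to genes with a read in each of the 12 libraries, DESeq2 with the trend removed for the interaction, and the alternatives for genes called in both analyses were chosen after seeing the data.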

Additional observations from a re-analysis of the deposited data

How the results depend on the processing

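The fitted log2 fold changes of the named genes gave 2883 values under the alternatives, of which 2762 kept direction and call, 121 lost the call and 0 changed direction. The settings with the most losses left out siR_Nostrill + IFN-γ replicate 2 (20 genes) or siR_Nostrill replicate 2 (18). Counts moved more. The 807 calls (623 higher, 184 lower) became 1330 with DESeq2 (489 lower), 1997 with only the 6 libraries (1165 and 832), 2255 with the length trend removed (1336 and 919) and 2664 with the replicate block and the trend removed (1523 and 1141), and limma on log2 FPKM called 307 and 305 lower with a pseudocount of 1 and 0.1. Genes called in both analyses numbered 1052 higher and 689 lower with only the 6 libraries, against 607 and 172, and 426 lower with DESeq2. With 1 library left out, the total ranged from 491 to 1138, the higher genes from 429 to 812, the lower from 55 to 326, those called in both from 418 to 773 higher and 54 to 307 lower, and with the trend removed the total ranged from 1297 to 2609, higher genes from 901 to 1506 and lower genes from 396 to 1111. The difference from siR_Ctrl cells was called for 0 genes in each fit with a library left out, 250 with the replicate block and the trend removed, and 328 with DESeq2 and the trend removed. The cause of these moves was not tested. The replicate block alone called 943 genes (690 and 253). Same-numbered libraries did not deviate together (correlations -0.22, -0.12 and -0.44), so the numbers were not taken as pairs. Depth limits genes with few reads, and the tables hold only genes read in siR_Nostrill cells.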
